A study of Mus musculus with 4 samples.

Results

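Islet macrophages were described here across 4 droplet-free, microwell-based 3′ single-cell RNA-seq libraries of mouse pancreatic islets. A cell was taken as a macrophage when at least 500 genes were detected, at most 20% of its unique molecular identifiers (UMIs, each standing for 1 captured mRNA molecule) were mitochondrial, and at least 4 of 8 macrophage genes were detected (C1qa, C1qb, C1qc, Lyz2, Csf1r, Adgre1, Cd68 and Tyrobp). Insulin (Ins1 plus Ins2), glucagon (Gcg) and somatostatin (Sst) each had to stay under 3% of the cell's UMIs. This rule gave 863 macrophages among 43205 cells that passed the gene and mitochondrial limits, which is 2.00% of them. The values that chose these cells are the detection of the 8 genes and the hormone shares, so the levels of those genes are given as a description only.

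The libraries came from male mice of 8 weeks. In the Cre-negative library the islet donors carried Tet2(flox/flox)Tet3(flox/flox) without Pdx1 cre, and in the Cre-positive library the same floxed alleles with Pdx1 cre. The control library came from offspring of control mothers, and the IHG library from offspring of mothers with intrauterine hyperglycemia. Tet2 and Tet3 encode dioxygenases that oxidise 5-methylcytosine, the methylated base of DNA. Pdx1 is a transcription factor of the pancreatic epithelium and beta cells and is not a gene of macrophages. The macrophages of both libraries carry the floxed alleles, and only the Cre-positive mice carry the recombinase, which is driven in other cells. All islets were freed with collagenase, picked by hand, cultured with serum and dissociated with trypsin before capture, and the islets of a tube were pooled. The number of mice behind a library was not stated. There was 1 library per group, so no difference below has a replicate check. The 95% intervals cover counting error only, and no p-value can be given for a difference between groups. Values of the 4 libraries are always listed in the order Cre-negative, Cre-positive, control and IHG.

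Macrophages are the main immune cells inside healthy mouse islets. They sit beside capillaries and beta cells, sample material that beta cells release, and present peptides on MHC class II molecules. They also make complement C1q, lysozyme and apolipoprotein E, depend on the receptor of colony-stimulating factor 1, and can release IL-1β and TNF. Type I interferons act on macrophages through a transcription factor complex that binds the interferon-stimulated response element in the promoters of antiviral genes. Cell isolation itself turns on immediate early genes and heat shock genes in tissue macrophages.

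The 250 bases before the start site of 3 interferon-stimulated genes are shown because their group had the largest median difference of the macrophage function lists between the Cre-positive and Cre-negative libraries. Some of these genes had to be higher in the Cre-positive library to be measured. The median therefore only chose what is shown and is no support for a direction. Sequences are from RefSeq on GRCm38.p6, written 5′ to 3′ on the strand of the gene. Capitals mark matches to GAAANNGAAA on either strand, a short form of the interferon-stimulated response element. They lie at chr19:34583279-34583528 on the plus strand (Ifit3), chr4:156200819-156201068 on the minus strand (Isg15) and chr12:26456453-26456702 on the minus strand (Rsad2).
Ifit3: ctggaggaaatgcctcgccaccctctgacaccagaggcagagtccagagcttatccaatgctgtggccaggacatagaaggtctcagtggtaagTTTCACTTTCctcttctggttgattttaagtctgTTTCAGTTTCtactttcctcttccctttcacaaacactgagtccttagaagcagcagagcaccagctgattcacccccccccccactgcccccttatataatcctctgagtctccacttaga
Isg15: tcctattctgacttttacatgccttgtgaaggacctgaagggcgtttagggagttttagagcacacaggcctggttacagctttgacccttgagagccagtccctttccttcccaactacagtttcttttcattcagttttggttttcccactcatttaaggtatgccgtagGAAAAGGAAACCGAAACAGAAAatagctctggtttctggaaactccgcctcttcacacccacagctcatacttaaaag
Rsad2: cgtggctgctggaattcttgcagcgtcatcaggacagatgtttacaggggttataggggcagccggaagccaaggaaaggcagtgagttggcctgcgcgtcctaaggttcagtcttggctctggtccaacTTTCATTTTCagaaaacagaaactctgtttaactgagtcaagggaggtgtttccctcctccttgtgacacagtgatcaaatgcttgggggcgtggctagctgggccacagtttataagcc
Ifit3 held 2 matches, the first of them 156 bases before the start. Isg15 held 3 overlapping matches, the first 78 bases before the start. Rsad2 held 1 match, 120 bases before the start. Of the 9 interferon-stimulated genes that were higher in the Cre-positive macrophages and had a promoter in the table, 4 held the motif, the other being Stat2. It was not in these letters for Irf7, Oasl2, Ifit2, Ifi44 and Ifitm3. Among all 27018 promoters of this length, 821 (3.04%) held it. A match is a description of the letters and was not tested as a binding site.

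The libraries held 52489846, 84146592, 109110492 and 95818236 UMIs, and 5928, 9587, 15752 and 11938 cells passed the gene and mitochondrial limits. The macrophages of each library summed to 155683, 1727741, 70059 and 411206 UMIs, with a median of 2942, 2443, 1856 and 2660 UMIs per cell. The control macrophages are therefore the least precise group. No macrophage barcode occurred in more than 1 library, although 51 to 220 barcodes of all cells were shared between pairs of libraries. Tet2 in the macrophages was 77.1, 71.8, 0 and 36.5 CPM (the UMIs of a gene per 1000000 UMIs of the macrophages of a library), from 12, 124, 0 and 15 UMIs. Tet3 was 51.4, 55.6, 57.1 and 60.8 CPM. In insulin-rich cells, taken as those with at least 10% insulin UMIs and fewer than 2 genes of the rule, Tet2 was 45.1, 31.4, 39.95 and 32.1 CPM and Tet3 was 33.6, 24.6, 29.99 and 25.4 CPM. The captured 3′ tags need not lie in the deleted part, so these values check neither label.

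The cells carried a macrophage profile in every library. C1qb, a chain of the complement starter C1q, was 5023, 5644, 3911 and 6376 CPM. The genes for its partner chains gave 623, 731, 557 and 985 CPM for C1qa and 3019, 3201, 2641 and 4764 CPM for C1qc. Lyz2, lysozyme, was 2055, 2518, 1898 and 2446 CPM, and Csf1r, the receptor for colony-stimulating factor 1, was 2377, 1819.7, 1456 and 2427 CPM. In endothelial cells of the same libraries C1qb was 1.76, 5.82, 0.673 and 1.44 CPM and in insulin-rich cells 0.433, 1.94, 0.0430 and 1.01 CPM. Adgre1, which encodes the F4/80 antigen, was 597, 318, 299.7 and 539.9 CPM, Cd68, a lysosomal glycoprotein, 527, 736, 571 and 854 CPM, and Tyrobp, a signalling adaptor, 1323, 1255, 1156 and 1739 CPM. All 8 genes of the rule were detected together in 25, 173, 4 and 66 of the cells. Just inside the rule, 2, 44, 7 and 0 cells had exactly 4 of the genes, and just outside it, 5, 27, 4 and 3 cells had 3.

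Genes of antigen presentation, which the rule did not use, marked the cells in the same way in the 4 libraries. H2-Aa, an MHC class II chain, was 16309, 14685, 14431 and 19265 CPM, and its partner H2-Ab1 was 16611, 15976, 16400.5 and 21476 CPM. Cd74, the invariant chain that guides class II molecules to the endosome, was 8093, 7760.4, 6409 and 8993 CPM. The class II chains together took a median of 5.29%, 4.98%, 4.88% and 6.36% of a cell's UMIs. Itgax, which encodes the integrin CD11c, was 784, 924, 914 and 875 CPM, and Apoe, the apolipoprotein of lipid transport, 9706, 7832, 8621 and 12485 CPM. Among the genes most enriched over all other kept cells, a choice made after their values were seen, were Mpeg1 (a pore-forming phagosome protein), Ctss (the cathepsin that cleaves the invariant chain), Cybb (the NADPH oxidase subunit), Laptm5 and Ms4a7.

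Several defining marks of other myeloid cells were low or at 0, and a few were not. Of 15 genes of perivascular-type resident macrophages, 10, 2, 9 and 4 had no UMI in the macrophages. Such counts also depend on the summed macrophage UMIs, which differed between the libraries, so they are not compared between them. Mrc1, the mannose receptor of that type, was 96.3, 59.6, 85.6 and 46.2 CPM, and Lyve1, a hyaluronan receptor, was 0, 0.579, 0 and 0 CPM. The list summed to 2030, 1566, 1228 and 1699.9 CPM, most of it from Selenop, a selenium carrier, at 1696, 1169.7, 899 and 1167 CPM, which was 1345, 935, 753 and 818 CPM in insulin-rich cells. Ly6c2, a surface protein of blood monocytes, was 0, 42.3, 0 and 2.43 CPM, with 0 UMIs in the Cre-negative and control macrophages. Flt3, a growth factor receptor of dendritic cells, was 25.7, 23.2, 0 and 4.86 CPM. The dendritic cell list summed to 790.1, 1007, 699 and 705 CPM, most of it from Siglech, a lectin of plasmacytoid dendritic cells, at 302, 109, 257 and 316 CPM and Bst2, an interferon-responsive surface protein, at 340.4, 650.0, 328 and 319 CPM. Ccr2, the chemokine receptor of recruited monocytes, was 732, 193, 243 and 306 CPM, highest in the Cre-negative macrophages.

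Macrophages made up 0.877% (exact Clopper-Pearson 95% interval 0.656 to 1.15) of the kept Cre-negative cells, 52 of 5928, and 6.61% (6.12 to 7.13) of the Cre-positive cells, 634 of 9587. They were 0.229% (0.160 to 0.316) of the control cells, 36 of 15752, and 1.18% (0.995 to 1.39) of the IHG cells, 141 of 11938. The Cre-positive share was the highest and the control share the lowest, and the counting intervals overlapped only for the Cre-negative and IHG libraries. Taken over the cells in which every hormone stayed under 3% of UMIs, the shares were 3.73% (2.80 to 4.86), 21.7% (20.2 to 23.3), 2.78% (1.95 to 3.83) and 9.28% (7.86 to 10.8). Against 100 endothelial cells, recognised by at least 4 of 8 endothelial genes, there were 25.9, 37.4, 3.46 and 18.7 macrophages. The Cre-positive value was highest on each of these scales and the control value lowest.

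**Figure D1:**
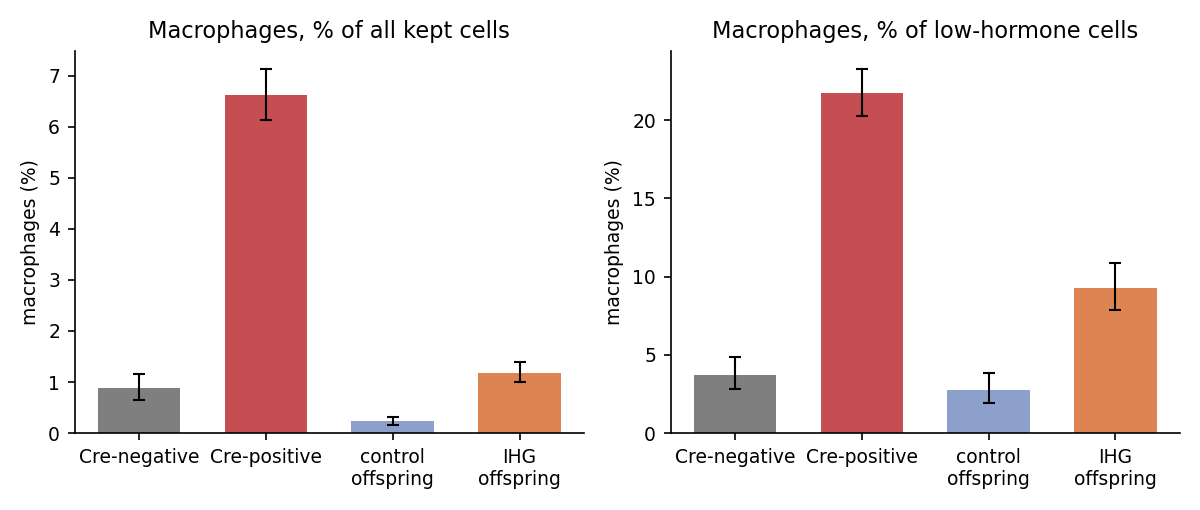
Macrophages as a percent of kept cells and of low-hormone cells, those with every hormone under 3% of UMIs (y axes, percent), 1 bar per library, with exact 95% binomial intervals that cover counting error only. The Cre-positive bars reach 6.61% and 21.7%, above the other 3 libraries in both panels.

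Picking islets by hand, culture and dissociation can set how many macrophages reach a library, and with 1 library per group this cannot be told apart from the group. The hormone limit left out further cells that met every other condition. These were 2, 55, 13 and 64 cells, or 3.70%, 7.98%, 26.5% and 31.2% of all cells with the macrophage genes. Their median UMI counts were 12260, 10593, 4344 and 8155.5, which is 4.17, 4.34, 2.34 and 3.07 times that of the macrophages. Their median Scrublet doublet scores were 0.103, 0.332, 0.114 and 0.154, against 0.0532, 0.0261, 0.0990 and 0.0489 for the macrophages. Whether they are macrophages holding beta cell material or captures of 2 cells was not tested.

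Between the Cre-positive and the Cre-negative macrophages, interferon-stimulated genes were higher in the Cre-positive library, beside higher heat shock genes and lower immediate early genes. A gene counted as higher or lower when it differed by at least 2-fold, reached 100 CPM in at least 1 of the 2 libraries and had at least 30 UMIs together. Of 2024 genes that met the level limits, 266 (13.1%) were higher and 234 (11.6%) lower in the Cre-positive macrophages, and the median gene differed by -0.06 on the log2 scale. None of the 8 genes of the rule passed 2-fold, nor did the class II chains. The interferon-stimulated list had 20 genes, of which 13 met the level limits, and 11 of these were higher and 0 lower, with a median log2 difference of 2.39 in which genes with 0 UMIs in 1 library stand at their bound against 3 UMIs. The same 3 UMIs per library set every fold written as "at least". Of the 11 genes, Irf7, Stat2, Isg15, Ifit3, Ifit2, Rsad2 and Oasl2 reached 100 CPM only in the Cre-positive library of the 2. They had to be higher there to be measured, so the count and the median are no support for a direction. Over all 19 genes found in the files, whatever their level, the sum was 739 CPM in Cre-negative and 3272 CPM in Cre-positive macrophages.

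Among transcription factors of the interferon response, Irf7, which amplifies interferon production, was 12.8, 269, 0 and 17.02 CPM, from 2, 464, 0 and 7 UMIs. It was 20.9-fold (5.75 to 173) higher in the Cre-positive macrophages, an interval that is wide because the Cre-negative library had 2 UMIs. Stat2, which carries the signal of the interferon receptors, was 64.2, 168, 14.3 and 55.9 CPM and 2.61-fold (1.40 to 5.51) higher. The Cre-positive macrophages held the highest level of both genes among the 4 libraries.

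Among antiviral effectors, Isg15, a ubiquitin-like modifier, was 0, 101, 14.3 and 24.3 CPM and at least 5.23-fold higher in the Cre-positive macrophages. Ifit3, a protein that binds foreign RNA complexes, was 19.3, 244, 0 and 17.02 CPM and 12.6-fold (4.30 to 61.6) higher, and Ifit2 was 19.3, 142, 28.5 and 31.6 CPM and 7.36-fold (2.49 to 35.9) higher. Rsad2 encodes viperin, which blocks viral replication. It was 19.3, 229.8, 14.3 and 21.9 CPM and 11.9-fold (4.05 to 58.1) higher. Oasl2, a relative of the oligoadenylate synthetases, was 12.8, 175, 71.4 and 63.2 CPM and 13.6-fold (3.73 to 113) higher. Ifi44, Ifi204 and Ifitm3 were also among the 11. The near-identical copies Ifit3 and Ifit3b may share reads, which makes their split uncertain. Trim30a (148, 152, 28.5 and 156 CPM) and Ifi27l2a (103, 204, 42.8 and 153 CPM) did not reach 2-fold.

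Interferon-stimulated genes were not limited to macrophages. In endothelial cells 11 of the 13 genes measured in macrophages met the level limits, 7 were higher in the Cre-positive library and their median log2 difference was 1.42. Here and below, lists in endothelial and insulin-rich cells are counted only over genes that also met the level limits in macrophages. The summed level of the list was 739, 3272, 499.6 and 970.3 CPM in macrophages, 2894, 5122, 1750 and 2235 CPM in endothelial cells and 73.1, 219, 95.8 and 83.1 CPM in insulin-rich cells. The macrophage sums cover all 19 genes found in the files, whereas a gene that reached 100 CPM in only 1 library had to differ to be counted above. The difference between macrophages and endothelial cells was not tested. Thinned to 1000 UMIs per cell, 6.12% (1.28 to 16.9) of Cre-negative macrophages held at least 3 UMIs of the list, against 27.8% (24.3 to 31.6) of Cre-positive, 2.94% (0.0744 to 15.3) of control and 11.8% (6.88 to 18.4) of IHG macrophages. This left out 3, 23, 2 and 5 cells with fewer UMIs. In endothelial cells thinned in the same way the shares were 51.7%, 46.2%, 23.3% and 37.7%, without a higher value in the Cre-positive library, and in insulin-rich cells 0%, 1.00%, 0% and 0%.

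The interferon signal of the Cre-positive library sat in a subset of its macrophages. With a limit of 0.5% of UMIs from the list, set after the values were seen, 154 of 634 Cre-positive macrophages (24.3%, interval 21 to 27.8) were above it. None of 52 Cre-negative macrophages was, which allows a share of up to 5.77%, and none of 36 control macrophages, which allows up to 8.33%. Of the IHG macrophages, 1 of 141 was above it. Few cells lay near the limit, with 4 Cre-positive cells between 0.4% and 0.5% and 3 between 0.5% and 0.6%. The 154 cells held 85.4% of all UMIs of the list in the Cre-positive macrophages. The median share of a cell's UMIs was 0.0691%, 0.0656%, 0% and 0.0801%, while the 90th percentile was 0.163%, 1.24%, 0.120% and 0.208% and the highest Cre-positive value 3.53%. The libraries were thus set apart by the upper tail and not by the median cell. Among endothelial cells 12.4% (8.21 to 17.8), 24.7% (22.7 to 26.8), 2.88% (1.95 to 4.09) and 4.50% (3.14 to 6.24) were above the same limit. The limit was set on macrophages, and the median share was higher in endothelial cells, at 0.278%, 0.219%, 0.154% and 0.196%. Their highest shares were 0.876%, 3.85%, 3.71% and 2.36%. Whether the endothelial cells above the limit form a separate group, as in the Cre-positive macrophages, was not tested.

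**Figure D2:**
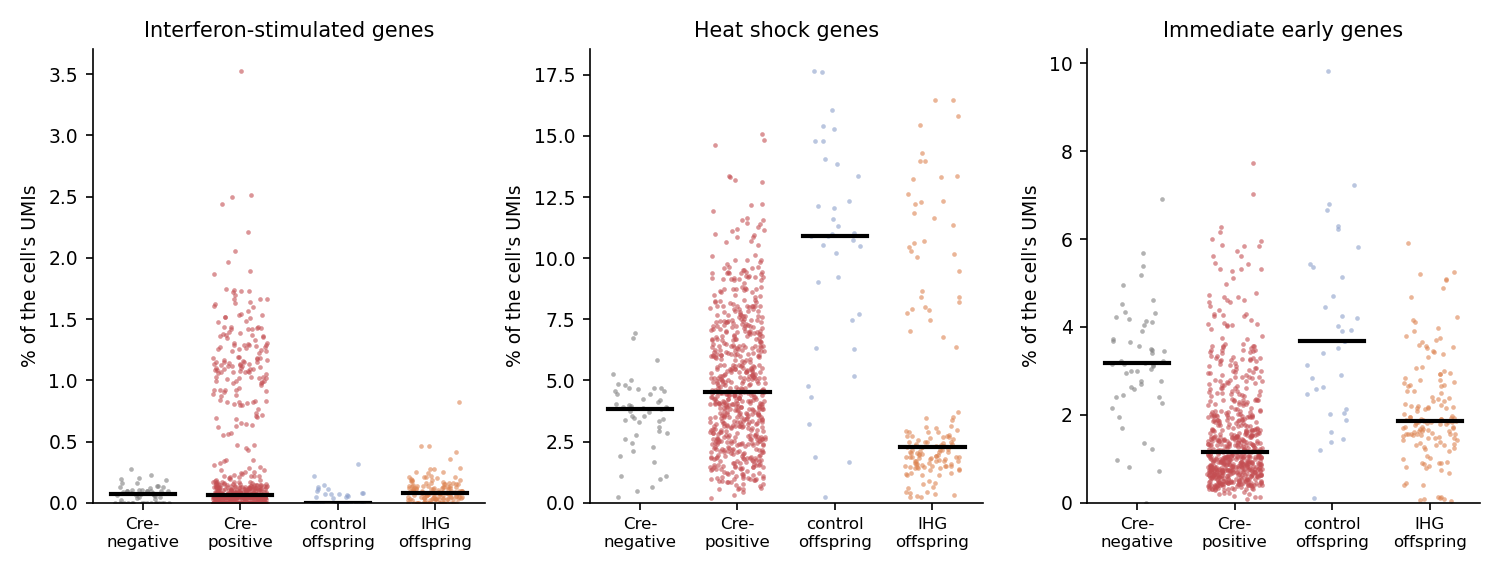
Percent of each macrophage's UMIs (y axes) taken by the interferon-stimulated, heat shock and immediate early genes, 1 point per cell by library, with the median as a line. The Cre-positive library has a separate group of cells with a high interferon-stimulated share, reaching 3.53%, the control library has the highest heat shock median, 10.9%, and the IHG cells leave a gap between 3.71% and 6.37% in the heat shock panel.

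The interferon-high cells were set beside the other 480 macrophages of the Cre-positive library to see which genes outside the list went with it. Both groups came from 1 library and had median depths of 2350.5 and 2457.5 UMIs, and since the cells were chosen by their interferon-stimulated genes, the values are a description. Of 1876 genes, 223 were higher and 85 lower in the interferon-high cells. Ly6a, the surface protein Sca-1, was 801 against 39.4 CPM, or 20.3-fold (15.1 to 27.8) higher. Ms4a4c, a membrane protein, was 891 against 50.02 CPM and 17.8-fold (13.7 to 23.5) higher. Cxcl10, which attracts T cells, was 389 against 53.1 CPM and 7.34-fold (5.51 to 9.87) higher. Fcgr1, the high-affinity receptor for IgG, was 431 against 64.4 CPM and 6.69-fold (5.14 to 8.77) higher. Slfn1, Ifit3b, Oas3, Cmpk2, Ifi47 and Cfb, most of them known interferon targets, were also among the genes named by size.

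Regulators of antigen presentation of both classes were higher in these cells, while most of the chains were not past 2-fold. The class I chain H2-T23 was past it, at 872 against 283 CPM and 3.08-fold (2.65 to 3.57) higher. Nlrc5, the transcriptional activator of class I genes, was 157 against 18.9 CPM, and Ciita, that of class II genes, 309 against 97.8 CPM and 3.16-fold (2.45 to 4.07) higher. Tap1, the peptide transporter of the class I route, was 213 against 52.3 CPM, and Cd40, a co-stimulatory receptor, 149 against 56.1 CPM. The class I chain H2-K1 was 2897 against 1764 CPM, and B2m, the light chain of class I molecules, 5270.1 against 2934 CPM, both under 2-fold. The class II chain H2-Aa was 12828 against 15260.0 CPM and C1qb 6541 against 5367 CPM, both under 2-fold. On the lower side, Itgam, the integrin CD11b, was 19.6 against 181 CPM, or 9.25-fold (4.62 to 21.7) lower in interferon-high cells, and the neutrophil attractant Cxcl2 was 296 against 1149 CPM, or 3.88-fold (3.22 to 4.71) lower. Cd14, the co-receptor for bacterial lipopolysaccharide, was 362 against 1041 CPM and 2.87-fold (2.42 to 3.43) lower. The antioxidant genes Srxn1 and Txnrd1 and the metallothionein Mt2 were lower too. Kdr, an endothelial receptor, was 318 against 124 CPM, and was detected in 40 of the 154 and 31 of the 480 cells. The endothelial genes Plvap, at 228 against 100 CPM, and Flt1, at 257 against 109 CPM, were past 2-fold as well. The other genes of the endothelial list did not meet the level limits. Cells with endothelial markers were kept in this split, and their part in its differences was not tested.

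Markers of other cells were also higher in the Cre-positive macrophages. Of 8 endothelial genes, 8, 0, 4 and 1 had no UMI in the macrophages of the 4 libraries, counts that also depend on the summed macrophage UMIs. The summed level of the 8 genes was 0, 519.8, 57.1 and 38.9 CPM. Kdr was 0, 169.6, 0 and 4.86 CPM, Plvap 0, 130.2, 14.3 and 7.30 CPM and Flt1 0, 144, 14.3 and 7.30 CPM, and Timp3, an inhibitor of metalloproteinases that endothelial cells express, 0, 172, 0 and 4.86 CPM. The red blood cell list summed to 0, 418, 0 and 0 CPM, with all 5 genes at 0 outside the Cre-positive library. A few cells carried it, with Hba-a1 in 5 cells and 204 of its 208 UMIs in 1 of them, and Hbb-bs in 12 cells, with 170 of its 181 UMIs in 1. Of the Cre-positive macrophages, 20 carried 3 or more markers of another class, 16 of them endothelial. Without such cells the log2 difference was -0.29 for Flt1, -0.99 for Plvap, -0.18 for Timp3 and 1.12 for Kdr. Each of these genes had 0 UMIs in the Cre-negative library, so the values stand against the 3 UMIs set for 0. A negative value is a level under that floor and not a level lower than in the Cre-negative library. The median of the interferon-stimulated list was then 2.35. With the haemoglobin-bearing cells left out, an alternative chosen after seeing the data, that median was 2.39. Genes of this list that reached 100 CPM only in the Cre-positive library had to be higher there, so neither median is support for a direction.

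The largest differences outside these lists began with Slc5a3, the myo-inositol transporter that cells use against osmotic stress. It was 0, 222, 128 and 60.8 CPM, from 0, 383, 9 and 25 UMIs, and so at least 11.5-fold higher in the Cre-positive macrophages. Il1r2, the decoy receptor for IL-1, was 0, 192, 71.4 and 46.2 CPM and at least 9.94-fold higher. Vim, the intermediate filament protein vimentin, was 51.4, 684, 314 and 175 CPM and 13.3-fold (6.73 to 30.9) higher, and Emp1, an epithelial membrane protein, was 0, 138, 0 and 2.43 CPM and at least 7.18-fold higher. Each of these 4 genes was highest in the Cre-positive library of the 4.

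Gpnmb, a glycoprotein of lipid-laden and phagocytic macrophages, was 0, 210.1, 0 and 0 CPM and at least 10.9-fold higher. It came from 32 Cre-positive cells, and without the richest cell its log2 difference was 2.39 in place of 3.45. Lgals3, the galectin of the same list, was 283, 1602, 542 and 530.1 CPM and 5.67-fold (4.21 to 7.82) higher. These were the only 2 of 11 measured genes of lipid-associated macrophages past the limits, with 0 lower. In cells thinned to 1000 UMIs, Lgals3 was detected in 14.3%, 56.8%, 29.4% and 34.6% of macrophages (42.3%, 75.4%, 52.8% and 60.3% before thinning) and in at most 0.401% of insulin-rich cells, whose median depth before thinning was 6214 to 11052 UMIs.

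**Figure D3:**
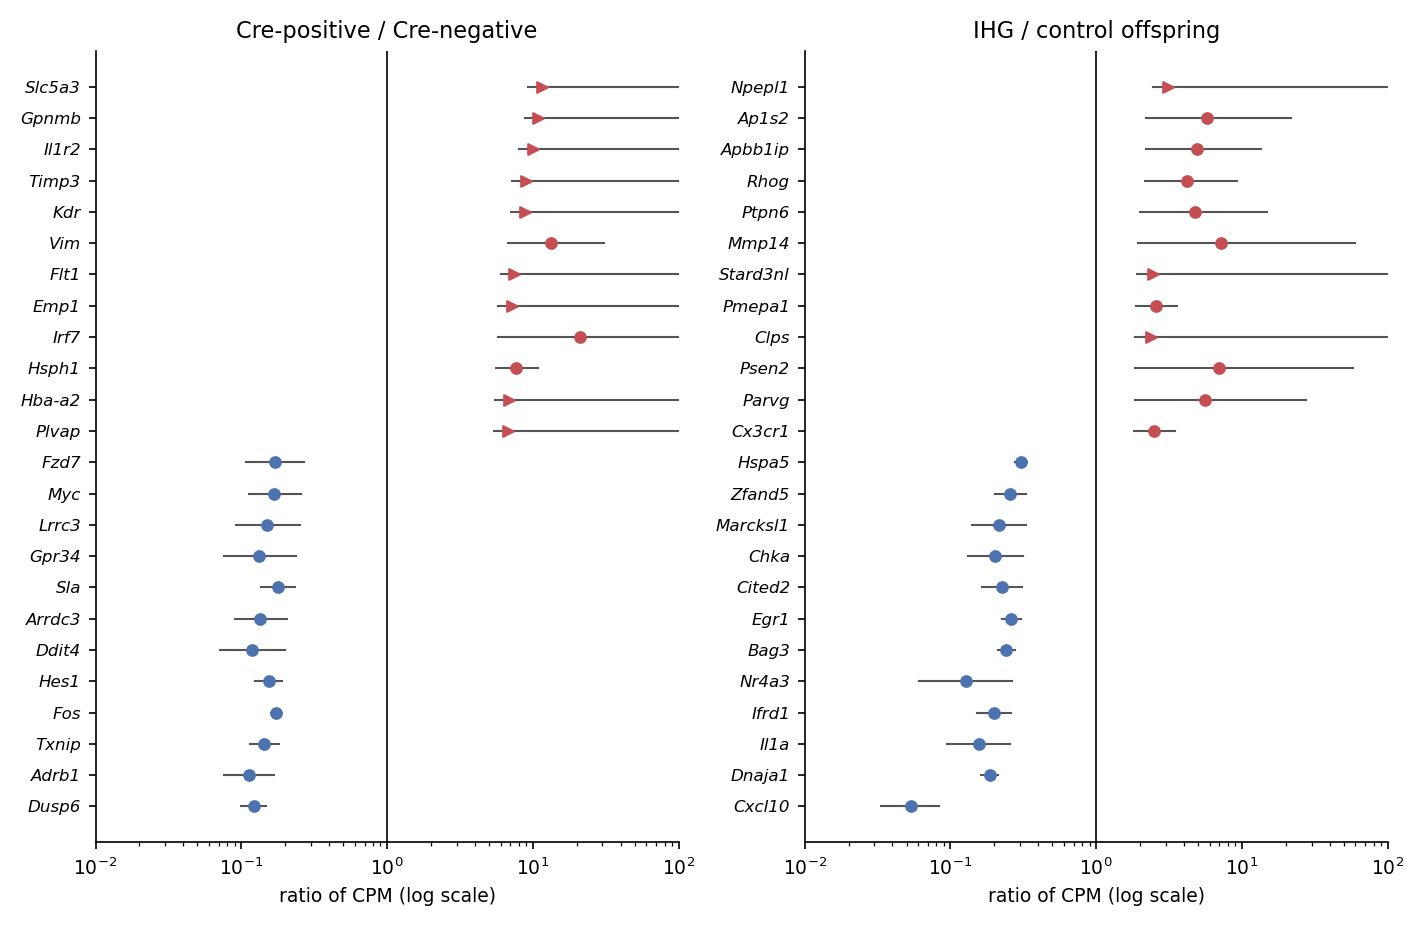
CPM ratios (x axes, log scale) of genes named by size in macrophages, Cre-positive over Cre-negative and IHG over control, with exact 95% intervals that cover counting error only. Triangles are genes with 0 UMIs in the denominator, where the ratio is taken against 3 UMIs, such as Slc5a3 at 11.5. Their interval lines can start below that ratio, and interval lines stop at the axis limit of 100.

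Several of the genes with the largest differences on the lower side are regulators of signalling. Dusp6, a phosphatase that dampens ERK signalling, was 1124, 137, 285 and 710.1 CPM and 8.23-fold (6.73 to 10.05) lower in the Cre-positive macrophages. Adrb1, the β1-adrenergic receptor, was 308, 34.7, 28.5 and 102 CPM and 8.88-fold (5.94 to 13.2) lower. Txnip, which binds thioredoxin and follows glucose, was 835, 119.8, 214 and 513 CPM and 6.97-fold (5.55 to 8.72) lower. Hes1, a Notch target, was 912, 140.1, 257 and 255 CPM and 6.51-fold (5.26 to 8.04) lower. For Dusp6, Adrb1 and Txnip the IHG macrophages had the level nearest to the Cre-negative ones. Ddit4, Arrdc3, Sla, Gpr34, Lrrc3, Myc and Fzd7 were named on the same side.

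Chemokine receptor genes were among the lower ones. Cx3cr1, the fractalkine receptor, was 1766, 665, 628 and 1556 CPM and 2.66-fold (2.32 to 3.03) lower, and Ccr2 was 3.79-fold (3.04 to 4.70) lower. Of 19 measured genes of macrophage identity, 2 were lower, Cx3cr1 among them, and 1 was higher, Pltp, a phospholipid transfer protein, so neither share was above its background of 11.6% or 13.1%. Of 8 measured genes of the growth factor receptor list, Csf2rb and Csf3r were higher and Tgfbr1, Il10ra and Ifngr1 lower.

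Of 19 measured immediate early genes, 8 were lower and 1, Maff, was higher, with a median log2 difference of -0.93. Fos, the AP-1 subunit, was 5447, 948, 3254 and 2782 CPM and 5.75-fold (5.28 to 6.25) lower in the Cre-positive macrophages. Egr1, an early response transcription factor, was 2807, 773, 4268 and 1116 CPM and 3.63-fold (3.25 to 4.05) lower. Jun, Junb, Ier2, Dusp1, Dusp2 and Btg2 were lower as well. The same list had a median of -0.47 in endothelial cells and 0.67 in insulin-rich cells, so its direction was not shared by all cells of the library.

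Heat shock genes went the other way, with 6 of 13 higher, 1 lower and a median of 0.68. Hsph1, a co-chaperone of HSP70, was 251, 1913, 2726 and 902 CPM and 7.64-fold (5.58 to 10.8) higher, and was detected in 22.4%, 73.6%, 88.2% and 30.1% of macrophages thinned to 1000 UMIs, against 9.95%, 47.3%, 26.8% and 19.5% of thinned insulin-rich cells. Before thinning 50%, 87.7%, 86.1% and 39.7% of macrophages had a UMI of it. Hsp90aa1, Hspb1, Dnaja1, Hspd1 and Bag3 were higher too, and Dnajb1 was lower. Hspa1a and Hspa1b, the inducible HSP70 genes, had ratios of 1.00 and 1.03. The list's median was 1.26 in endothelial cells and 1.36 in insulin-rich cells of the same libraries, higher than in macrophages.

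In other lists a few members each were past the limits. Of 10 measured metallothionein and antioxidant genes, Mt1, Mt2, Prdx1 and Txnrd1 were higher, with a median of 0.90. Mt2, which binds zinc and copper, was 77.1, 405, 285 and 148 CPM, and Txnrd1, thioredoxin reductase, 38.5, 139, 28.5 and 43.8 CPM. Of 20 lysosome and cathepsin genes, Ctsa, Ctsd and Ctsz were higher and 0 lower. Of 10 genes of class II presentation, H2-DMa, Cd86 and Ifi30 were higher, with a median of -0.06 for the list. Of 10 glycolysis genes, Gapdh, Pkm and Pfkfb3 were higher. Among cytokines and NF-κB targets, Rel and Bcl2a1b of 11 were higher, and Il1b (1182, 938, 2198 and 783 CPM) and Tnf (398, 353, 2041 and 571 CPM) did not reach 2-fold. Each of these lists rests on 4 or fewer genes past the limits, to be read against the background of 13.1%.

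Iron handling gave Ftl1, the ferritin light chain, 1253, 3623, 2712 and 3611 CPM and 2.89-fold (2.51 to 3.35) higher, and Slc11a2, the DMT1 iron transporter, higher as well. Hpgd, which was placed on the same list but encodes an enzyme of prostaglandin breakdown, was lower. Hormone RNA also differed. Gcg was 315, 2262, 414 and 776 CPM in macrophages, 7.19-fold (5.42 to 9.73) higher in those of the Cre-positive library, while in insulin-rich cells it was 479, 16036, 5384 and 6001 CPM. Ppy was 70.7, 1108, 14.3 and 114 CPM and Pyy 321, 671, 14.3 and 114 CPM. The part of such RNA from other cells in the differences was not tested.

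Heat shock genes and cytokine genes were lower in IHG than in control macrophages. Of 1622 genes that met the level limits, 245 (15.1%) were higher and 184 (11.3%) lower, and the median log2 difference over all genes was 0.22. Median-of-ratios scaling brings that median to -0.09, and with it 153 were higher and 245 lower, so the balance of the counts depended on the scaling. The control side rests on 36 cells and 70059 UMIs.

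Of 13 heat shock genes, 11 were lower in IHG macrophages, 0 were higher, and the median log2 difference was -1.55. Dnaja1, a partner of HSP70, was 674, 2532, 5938 and 1104 CPM and 5.38-fold (4.70 to 6.16) lower in IHG than in control macrophages. Bag3, which couples HSP70 to protein disposal, was 520.3, 1308, 5881 and 1423 CPM and 4.13-fold (3.64 to 4.70) lower, and Hspa5, the chaperone of the endoplasmic reticulum, was 1966, 2782, 9378 and 2855 CPM and 3.28-fold (2.98 to 3.62) lower. Hspe1 and Hsp90ab1 did not reach 2-fold. The summed level of the list was 36433, 45590, 106467 and 41152 CPM, so the control library stood far above the other 3. In endothelial cells the median of the list was -1.22 and in insulin-rich cells -0.54.

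Inflammatory genes were also highest in the control library. Of 12 measured cytokines and NF-κB targets, 8 were lower in the IHG macrophages and 0 higher, with a median of -1.41. Tnf, tumour necrosis factor, was 398, 353, 2041 and 571 CPM and 3.57-fold (2.88 to 4.42) lower. Il1b, which encodes IL-1β, was 1182, 938, 2198 and 783 CPM and 2.81-fold (2.30 to 3.41) lower, and Il1a was 161, 89.7, 528 and 82.7 CPM and 6.39-fold (3.90 to 10.5) lower. Nfkbiz, Tnfaip3, Nlrp3, Rel and Tnfaip2 were the others. In cells thinned to 1000 UMIs, Tnf was detected in 20.4%, 23.4%, 61.8% and 30.1% of macrophages (36.5%, 38.8%, 66.7% and 39.01% before thinning) and in at most 0.100% of insulin-rich cells. As for heat shock, the control library had the highest summed level, 4811, 4697, 10805 and 4375 CPM.

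The IHG macrophages formed 2 groups by the heat shock list's share of their UMIs. With a limit of 5%, set after the values were seen, 36 of 141 IHG macrophages (25.5%, 18.6 to 33.6) were above it, the lowest of them at 6.37%, and 105 were below it, the highest at 3.71%. No IHG macrophage had a share between 4% and 6%, whereas 18 Cre-negative, 163 Cre-positive and 3 control macrophages did. Above the limit were 9.62% (3.20 to 21.03) of Cre-negative, 44.2% (40.3 to 48.1) of Cre-positive and 83.3% (67.2 to 93.6) of control macrophages. The limit was set on macrophages and does not apply to other cells, whose shares were lower, with IHG medians of 0.882% in endothelial and 0.940% in insulin-rich cells, and whether those cells form groups was not tested.

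Inflammatory genes went with the heat shock share within the IHG library. The median depth was 2705.5 UMIs in the 36 cells and 2660 in the 105, and the values are a description of cells chosen by their heat shock genes. Tnf was 1707 against 197 CPM, or 8.66-fold (6.43 to 11.8) higher in the 36 cells, whose level lies nearer to that of all control macrophages. Il1b was 1688 against 485 CPM, and Nfkbiz, an NF-κB co-regulator, was 1589 against 136 CPM and 11.7-fold (8.29 to 16.9) higher. The chemokine gene Ccl4 was 5298 against 527 CPM and 10.1-fold (8.42 to 12.1) higher, and Cd83, a surface protein of activated antigen-presenting cells, 2590.2 against 236 CPM and 10.97-fold (8.44 to 14.4) higher. Of 1720 genes, 165 were higher and 279 lower in the 36 cells. C1qb was 4454 against 7009.7 CPM and Csf1r 1884 against 2606 CPM, both under 2-fold.

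Among 7 measured chemokines, Cxcl10 and Cxcl2 were lower, beside a background of 11.3% lower over all measured genes. Cxcl10 was 12.8, 133, 1228 and 65.7 CPM and 18.7-fold (12.01 to 29.98) lower in IHG than in control macrophages, and its 86 UMIs in the control library came from 12 of 36 cells. Cxcl2 was 957, 947, 2940.4 and 875 CPM and 3.36-fold (2.82 to 4.00) lower. Of 18 immediate early genes, Fosb, Egr1, Atf3, Klf6, Nr4a1 and Maff were lower and 0 higher, with a median of -0.75. Egr1 was 3.82-fold (3.29 to 4.43) lower, and Nr4a3, an orphan nuclear receptor of the same early response, was 57.8, 266, 285 and 36.5 CPM and 7.83-fold (3.81 to 16.4) lower. Hmox1, heme oxygenase, was 1175, 1808, 2926 and 958 CPM and 3.05-fold (2.57 to 3.62) lower.

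**Figure D4:**
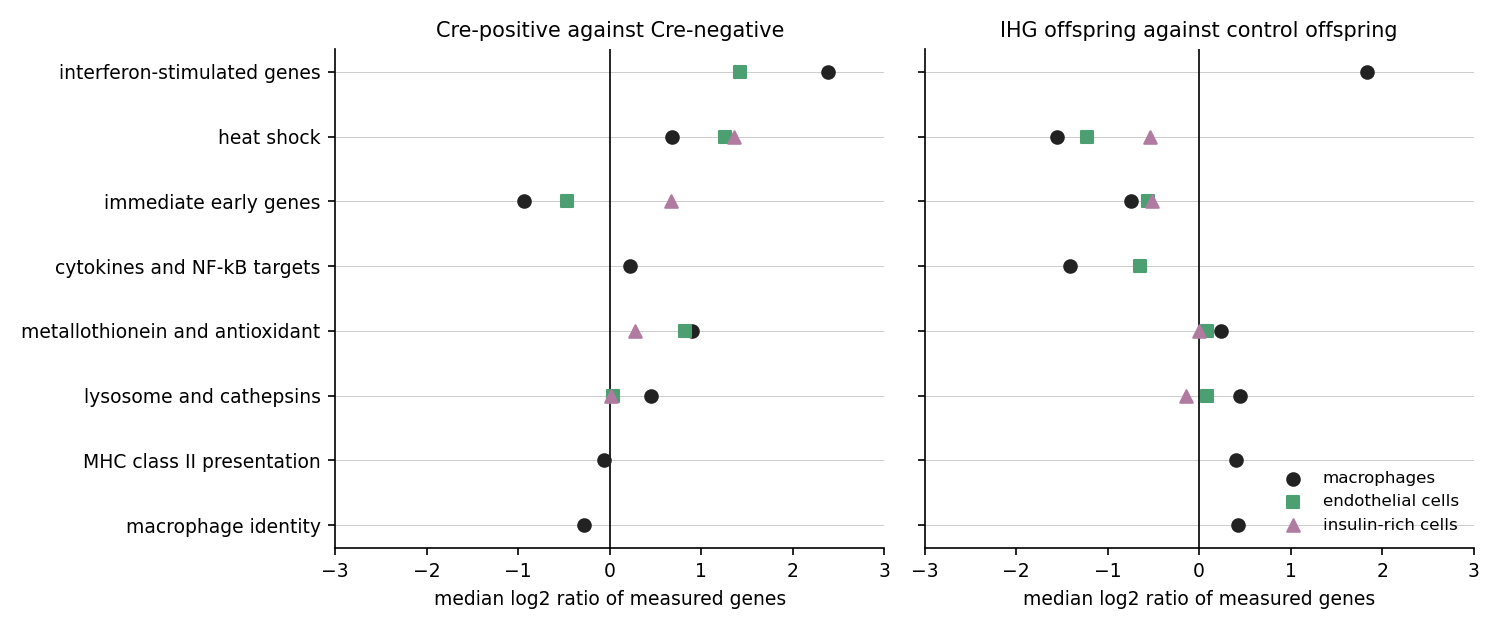
Median log2 difference (x axes) of 8 gene lists in macrophages, endothelial cells and insulin-rich cells, Cre-positive over Cre-negative and IHG over control, shown where at least 3 genes were measured. Medians of endothelial and insulin-rich cells cover only genes that also met the level limits in macrophages. Interferon-stimulated genes reach 2.39 in macrophages and 1.42 in endothelial cells in the first panel, and heat shock genes -1.55, -1.22 and -0.54 in the second. The value of 2.39 includes genes that had to be higher in the Cre-positive macrophages to be measured, so it is no support for a direction.

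Genes higher in the IHG macrophages included surface receptors and signalling adaptors. Cx3cr1 was 2.48-fold (1.82 to 3.44) higher in IHG than in control macrophages, the opposite side to its difference in the Cre comparison. Pmepa1, a target and inhibitor of TGF-β signalling, was 1066, 760.0, 599 and 1537 CPM and 2.56-fold (1.87 to 3.59) higher. Ap1s2, a subunit of the clathrin adaptor AP-1, was 437, 417, 57.1 and 331 CPM and 5.79-fold (2.21 to 21.6) higher, and Ptpn6, the phosphatase SHP-1, was 257, 156, 71.4 and 340.5 CPM and 4.77-fold (2.00 to 14.9) higher. Npepl1, an aminopeptidase-like protein, had 16, 134, 0 and 55 UMIs and was at least 3.12-fold higher. Spi1, which encodes the myeloid factor PU.1, was 103, 121, 57.1 and 212 CPM and 3.71-fold (1.40 to 13.9) higher, and Fcgr1 was higher too.

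Of 10 measured genes of lipid-associated macrophages, Lpl and Lipa were higher, Abca1 was lower and the median was 0.11, to be read against the background of 15.1% higher. Lpl, lipoprotein lipase, was 64.2, 106, 42.8 and 224 CPM and 5.22-fold (1.73 to 25.8) higher, and Abca1, a cholesterol exporter, 212, 177, 186 and 89.98 CPM and 2.06-fold (1.01 to 3.97) lower. Of 9 measured scavenger receptors, Cd36 and Fcgr2b were higher and 0 lower. Cd36, a fatty acid and oxidised lipid receptor, was 148, 284, 114 and 389 CPM and 3.41-fold (1.69 to 8.03) higher. Intervals this wide reflect few control UMIs. Of 10 measured genes of class II presentation 0 passed 2-fold, with a median of 0.40. Of the interferon-stimulated list, 3 genes met the level limits. They include Ifi27l2a and Trim30a, which reached 100 CPM only in the IHG library of the 2 and so had to be higher there to be measured, and their count is no support for a direction. Clps, a pancreatic acinar gene, was 0, 3.47, 0 and 102 CPM, from 42 UMIs of which 40 lay in 1 IHG cell.

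Hormone RNA in these macrophages, which the rule limited but did not set, was lower for insulin in the IHG library. Ins2 was 2209.6, 2707, 6081 and 2551 CPM in macrophages and 2579.6, 2543, 5325 and 2479 CPM in endothelial cells, and the beta cell list summed to 3392, 4351, 9649 and 3966 CPM in macrophages. The median share of insulin in a macrophage's UMIs was 0.221%, 0.265%, 0.536% and 0.262%. The control macrophages thus stood above the other 3 libraries in insulin RNA, heat shock genes and cytokines alike, and had the lowest median depth. Their part in the inflammatory difference was not tested.

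Grouping all 863 macrophages by expression gave 6 clusters of 218, 191, 151, 150, 142 and 11 cells. Clusters 1, 2, 5 and 6 came to at least 98% from the Cre-positive library. Cluster 1 was led by Gpnmb, Clec4e and Mgl2. Cluster 2 was led by haemoglobin genes, with Hba-a1 in 4 of its cells, and by Ppy and Pyy. Of the dendritic cell list, Cd209a was 92.4 CPM in cluster 1 against 9.15 CPM in the other macrophages. Ccr7 was 67.6 against 1.83 CPM and Flt3 26.2 against 16.5 CPM. They were detected in 18, 10 and 18 cells of cluster 1, and whether these are dendritic cells was not tested. Cluster 3, led by Ddit4, Dusp6 and Txnip, held 41 Cre-negative, 1 Cre-positive, 6 control and 103 IHG cells. Most Cre-negative and IHG macrophages thus lay in cluster 3, and most Cre-positive and control macrophages in other clusters. Cluster 5 was led by Ifit3, Ifi44 and Irf7, and cluster 6, of 11 cells, by Timp3, Plvap and Flt1. The cluster most evenly shared, cluster 4, held 9, 77, 28 and 36 cells and was led by Phlda1, Bag3 and Dnajb1. Within cluster 4 alone, a choice made after seeing the data, the log2 median of heat shock genes was 1.02 for the Cre comparison and -0.07 for the IHG comparison, that of cytokines and NF-κB targets 0.07 for the IHG comparison, and that of interferon-stimulated genes -0.02 for the Cre comparison. Cells of cluster 4 were grouped partly by these heat shock and NF-κB genes. Cluster 5 held 79.4% of the UMIs of interferon-stimulated genes in Cre-positive macrophages, and cluster 4 held 2.71%.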

How the data were processed

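Single cells of mouse islets were profiled in 4 libraries with the SeekOne MM kit, which tags the 3′ ends of mRNA. The deposited matrices hold whole UMI counts per gene and barcode, for 32285 gene IDs and 45709 barcodes. The submitters' processing notes name Cell Ranger, Seurat and mm10, without a role for each. The 4 deposited matrices list 6421, 10145, 16459 and 12684 barcodes. The aligner settings, annotation, barcode filter and use of strand in counting were not stated.

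The members and gene lists were chosen with earlier results of these data known. UMIs of IDs sharing a symbol were summed, UMIs of the macrophages of a library were summed, and CPM ratios were given with exact conditional binomial 95% intervals. Shares have exact Clopper-Pearson intervals. Intervals and limits cover counting error only, and a count of 0 was taken to allow 3 UMIs or cells. No test between groups was made, since each group had 1 library. Per comparison, the 12 genes higher and the 12 lower with the largest interval bound nearest to 1 among those past the size limits were named, besides hormone and mitochondrial genes. Added to them were the 8 genes of the rule, up to 4 members of each list, and all members of the class II, cytokine and perivascular lists with Tet1, Tet2 and Tet3. Endothelial cells had at least 4 of 8 endothelial genes, and insulin-rich cells at least 10% insulin UMIs with fewer than 2 genes of the rule. List counts and medians in both cover only genes that also met the level limits in macrophages. Genes named from the splits of Cre-positive macrophages by interferon-stimulated genes and of IHG macrophages by heat shock genes were chosen after the values were seen. Macrophages were clustered with scanpy 1.11.5 and igraph 0.11.9 (Leiden, resolution 0.5, 15 neighbours, 20 principal components of 1500 variable genes). Doublets were scored with Scrublet (expected rate 0.06) and kept. Promoters come from the RefSeq table on GRCm38.p6 and are 250 bases long. Some genes of the lists are not reported here by name. Ratios were checked on simulated counts. Alternatives changed the marker and hormone limits, the gene minimum, doublets, scaling, averaging and the size limits.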

Additional observations from a re-analysis of the deposited data

How the results depend on the processing

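No paired analysis was possible because each group had 1 library. Of the shares and counts of genes, 64 recomputed values kept to within their counting interval or 1.5 times and 16 moved. A limit of 1% on each hormone gave a control share of 0.159%, and a minimum of 1000 genes gave shares of 5.08% (Cre-positive), 0.0814% (control) and 0.923% (IHG). Median-of-ratios scaling gave 153 higher genes for IHG against control, or 38.4% higher among those past the limits in place of 57.1%, and 60.4% in place of 53.2% for the Cre comparison. In the order Cre higher, Cre lower, IHG higher and IHG lower, limits of 50 CPM and 10 UMIs gave 489, 563, 608 and 483 genes, and 1.5-fold gave 458, 497, 489 and 333. The fewer or more genes counted follow from these limits. Within cluster 4, an alternative chosen after seeing the data like those on haemoglobin and on the richest cell, 87 genes were lower in the Cre comparison, and 37 were higher and 36 lower in the IHG comparison.

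Of the values for the single genes and lists reported, 2603 kept their size, 182 moved and 26 changed sign, all 26 on the log2 scale as follows. Dnmt3a in the IHG comparison was 1.12 with at least 1000 genes. In the Cre comparison, Flt1 was -0.0201, Plvap -0.44 and the endothelial list -0.0201 without the highest Scrublet scores, and Timp3 -0.18, Flt1 -0.29, Plvap -0.99 and the list -0.29 without cells bearing markers of another class. Within cluster 4, Emp1 was -0.42, Myc 0.58, Rel -0.20, Cxcl10 -1.01, Ifitm3 -0.29, Slc11a2 -1.01, Pdgfa -0.0839, Mmp12 -1.11, Csf2rb -0.33, Pyy -0.79 and the interferon-stimulated list -0.0171 in the Cre comparison. In the IHG comparison Nfkbiz was 0.59, Tnfaip3 0.44, Txnip -0.51, Ifngr1 -0.20 and the cytokine list 0.0748 there. Hbb-bs was -1.73 without haemoglobin-bearing cells and -1.60 without its richest cell. Flt1, Plvap, Timp3, Emp1, Hbb-bs and the endothelial list had no UMI in the Cre-negative macrophages. Their negative values are levels under the 3 UMIs set for an empty count and not reversals. The same can hold for other genes without a UMI within cluster 4. Cluster 4 held 9 Cre-negative and 28 control cells, and the cause of these changes was not tested. Depth limits the control macrophages most: at 70059 UMIs, 3 UMIs already stand for 42.8 CPM.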

Other observations

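Some genes outside the groups above also differed by at least 2-fold in macrophages. In the Cre comparison, Mmp12, the macrophage elastase, was 186, 500.1, 614 and 204 CPM in the Cre-negative, Cre-positive, control and IHG libraries, and Pdgfa, a growth factor for mesenchymal cells, was 25.7, 143, 57.1 and 60.8 CPM. Siglech was lower in the Cre-positive macrophages. Mmp12 was lower in IHG than in control macrophages, together with Gdf15, a stress cytokine. Of 15 measured nuclear genes of oxidative phosphorylation, Cox6a1, Cox8a and Atp5b were higher in IHG macrophages and 0 lower, with a list median of 0.50 on the log2 scale, against a median of 0.22 over all genes. Of 8 measured genes of glycolysis, Aldoa, Eno1 and Ldha were higher in IHG macrophages and Pfkfb3 lower. With median-of-ratios scaling the median over all genes was -0.09 in this comparison. Clec4f and Fcna, lectin genes known from liver macrophages, had 39 and 37 UMIs in the IHG macrophages, each in 1 cell.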
